A study of Mus musculus with 2 samples.

Results

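The RNA of 10 genes that build the axon initial segment, the node of Ranvier and the paranode beside it was measured in mouse hippocampus: Ank2, Ank3, Sptbn4, Sptbn1, Sptan1, Nfasc, Nrcam, Cntn1, Cntn2 and Cntnap1. The members were taken by gene name, and they are 10 of 55536 annotated genes, with 146 annotated transcripts among them. Total RNA was sequenced in 2 libraries of a single group, with 300 ng of RNA put into each library. All of it came from the hippocampus of B6CASTF1/J females at 36 days of age, with the tissue type labelled as layer of hippocampus. B6CASTF1/J is the first-generation cross of the C57BL/6J and CAST/EiJ strains, so every autosomal gene here was present as an allele of either strain. The labels give each library its own biosample and both a single donor identifier, so the SD between the libraries may not be a spread between separate mice. No treatment, genotype or tissue was compared, and all values below are descriptions without a test.

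An axon is divided into domains by a scaffold under its membrane. Ankyrins tie membrane proteins to spectrin, a tetramer of alpha and beta chains that lies against the actin rings of the axon. At the initial segment, where action potentials start, and at nodes, where they are renewed, ankyrin-G holds sodium channels, Kv7 potassium channels and the adhesion molecules neurofascin and NrCAM. At the paranode, contactin-1 and Caspr (the product of Cntnap1) on the axon face a form of neurofascin on the myelinating glial cell. Contactin-2 lies at the juxtaparanode, next to the paranode.

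Much of what these genes make differs in the exons a transcript keeps, so the coding sequences that the results below turn on are shown first. They were read from GENCODE M21 transcripts on build mm10, which carries the C57BL/6J sequence, and run 5′ to 3′ on the coding strand. In the opening set, capitals mark the opening bases of the giant exons of both ankyrin genes and lower case marks the end of the exon before. The exon of Ank2-207 lies at chr3:126941610-126947807 on the minus strand, and those of Ank3-244 and Ank3-233 at chr10:69986089-69993762 and chr10:69986083-69988632 on the plus strand. The shorter Ank3 form opens 6 bases further upstream, as the shift of its capitals shows.
Ank2-207 giant exon: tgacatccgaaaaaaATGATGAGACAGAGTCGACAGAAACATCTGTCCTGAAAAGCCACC
Ank3-244 giant exon: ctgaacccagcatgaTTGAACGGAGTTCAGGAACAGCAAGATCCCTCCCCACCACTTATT
Ank3-233 giant exon: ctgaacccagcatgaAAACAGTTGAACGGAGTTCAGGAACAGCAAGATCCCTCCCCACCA

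The next set holds the smaller exons whose use varied between transcripts. Capitals mark the whole exon, and lower case marks the 12 bases of the neighbouring exons that join it in the spliced RNA. They lie at chr3:126979256-126979267 (Ank2), chr10:69929447-69929458 (Ank3), chr2:30001100-30001159 (Sptan1), chr1:132637864-132637881 (Nfasc), and chr12:44535057-44535074 and chr12:44597782-44597793 (Nrcam). Ank2 and Nfasc are on the minus strand and the others on the plus strand.
Ank2 12-base exon: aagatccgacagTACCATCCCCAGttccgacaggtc
Ank3 12-base exon: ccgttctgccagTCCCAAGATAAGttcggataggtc
Sptan1 60-base exon: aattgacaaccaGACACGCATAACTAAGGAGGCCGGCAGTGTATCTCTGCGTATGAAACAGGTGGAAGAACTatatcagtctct
Nfasc 18-base exon: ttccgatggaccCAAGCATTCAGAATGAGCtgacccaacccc
Nrcam 18-base exon: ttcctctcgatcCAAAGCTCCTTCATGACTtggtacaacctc
Nrcam 12-base exon: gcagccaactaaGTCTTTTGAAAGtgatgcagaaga

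The 12-base exons of the ankyrin paralogs matched at 6 of 12 bases, against 7 of the 12 bases before them and 10 of the 12 after them. The 18-base exons of Nfasc and Nrcam matched at 9 of 18 bases. The last set is shown because it encodes the cytoplasmic site by which L1-family adhesion molecules bind ankyrin. Capitals mark the codons of the core of that site, and 14 of its 15 bases are the same in both genes.
Nfasc ankyrin-binding site: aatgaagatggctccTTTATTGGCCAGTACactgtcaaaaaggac
Nrcam ankyrin-binding site: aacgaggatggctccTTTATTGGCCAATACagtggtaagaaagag

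Levels are given in TPM, a unit of transcript abundance, which divides a gene's counts by its RNA length and scales each library to the same total, so genes can be set side by side. They come from a first quantification, and a second quantification of the same libraries is given where it differs. All 10 members reached 1 TPM in both libraries, as did 26.3% of all annotated genes and 57.6% of protein-coding genes. Their median level was 158 TPM, beside 14.7 TPM over the 12679 protein-coding genes detected at that level. Summed over the members, replicate 1 had 1579 TPM and replicate 2 had 1551 TPM (1565 ± 19.8, SD, n = 2), and they took 0.634% and 0.638% of all counts. Their median gene length was 173 kb, beside 26.1 kb over the same protein-coding genes.

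The spectrin chains spanned the widest range of the protein families here. Sptan1, the alpha chain of neuronal spectrin, was at 330 and 315 TPM in replicates 1 and 2 (323 ± 10.4, SD, n = 2), the highest level of the members. Sptbn1, the beta-II chain that is found along the axon shaft, was at 228 and 227 TPM (227 ± 0.933). Sptbn4, the beta-IV chain of initial segments and nodes, was at 52.9 and 54.4 TPM (53.6 ± 1.01). Sptbn1 thus stood 4.24 ± 0.0973-fold above Sptbn4 in TPM (SD, n = 2), and the ranges of these genes did not overlap.

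Of the ankyrins, Ank2, which makes ankyrin-B of the axon shaft, was at 277 and 276 TPM (277 ± 0.629, SD, n = 2). Ank3, which makes ankyrin-G of the initial segment and node, was at 184 and 192 TPM (188 ± 5.56). The ratio of Ank2 to Ank3 was 1.47 ± 0.0471, and Ank2 was higher in both libraries and both quantifications.

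Among the adhesion molecules, Nrcam was at 213 and 208 TPM (210 ± 3.11, SD, n = 2) and Nfasc at 69.8 and 62.7 TPM (66.3 ± 5.01), a ratio of 3.18 ± 0.193. Cntn1, which makes contactin-1, was at 129 and 128 TPM (128 ± 0.552). Its paranodal partner Cntnap1 was at 67.7 and 61.9 TPM (64.8 ± 4.14), and the ratio of Cntn1 to Cntnap1 was 1.98 ± 0.118. Cntn2, which makes contactin-2, was the lowest member at 28.7 and 26.4 TPM (27.5 ± 1.61). Even so, Cntn2 stood at percentile 70.4 of the detected protein-coding genes, and Sptan1 at percentile 99.1.

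In descending order the levels ran Sptan1, Ank2, Sptbn1, Nrcam, Ank3, Cntn1, Nfasc, Cntnap1, Sptbn4 and Cntn2. Only the neighbours Nfasc and Cntnap1 overlapped in their ranges over the libraries of the first quantification. The second quantification gave the same order but for Nrcam (388 and 389 TPM) and Sptbn1 (361 and 365 TPM), which changed places. Every member was higher there, by 1.47-fold for Sptan1 to 2.17-fold for Cntn2, and the median over detected protein-coding genes was 1.71-fold. The ratio of Cntn1 to Cntn2 was 4.66 ± 0.252 by the first quantification and 3.59 ± 0.139 by the second.

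**Figure D1:**
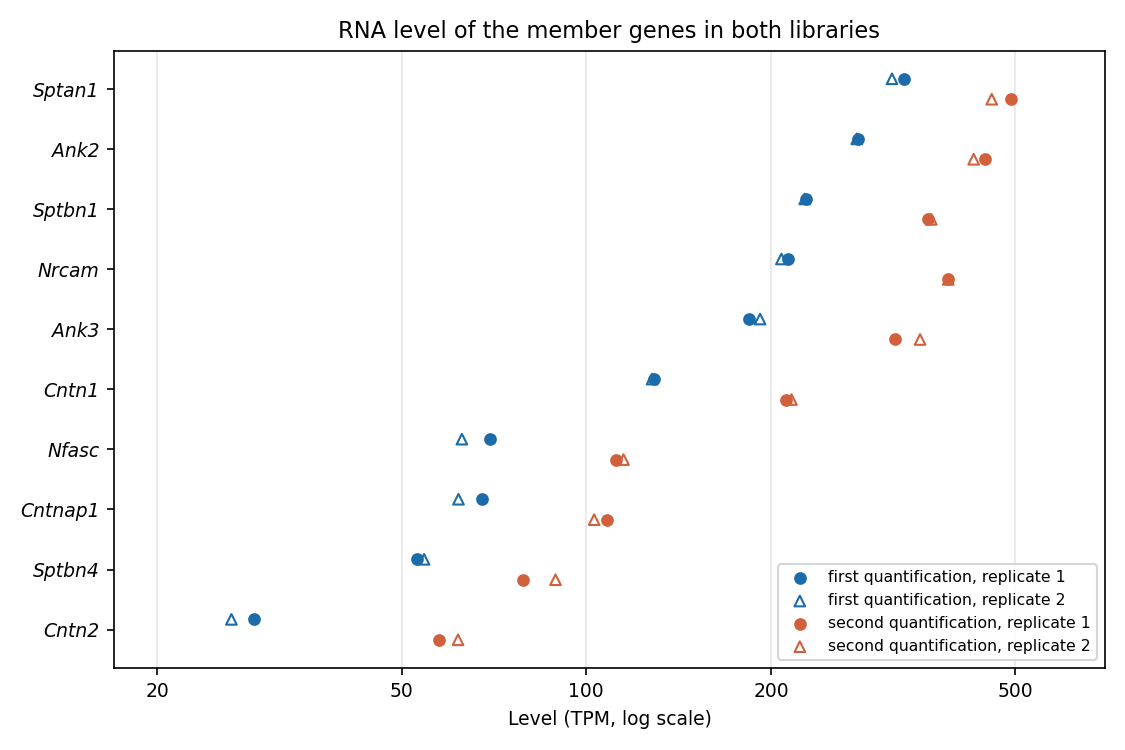
Level of each member in TPM (log axis), with 1 symbol per library and quantification: circles for replicate 1, triangles for replicate 2, blue for the first quantification and orange for the second. The libraries lie close together within each quantification, from 26.4 TPM for Cntn2 to 330 TPM for Sptan1 in the first, and every member lies further right in the second.

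Cntn2 and Nfasc are neighbours on chromosome 1, at chr1:132509427-132543256 and chr1:132564690-132741797, both on the minus strand. The gap between them is 21433 bases, and 0 annotated genes lie wholly within it. Cntnap1, at chr11:101170523-101190724 on the plus strand, overlaps Ccr10 and Plekhh3 on the other strand, the higher of which was at 5.43 TPM. Whether counting used the strand is not given in the sources used here. How many reads from those genes were counted for Cntnap1 is therefore not known. Overlap here is of whole gene spans, and shared exon bases were not examined. For the other members, annotated genes overlapping on the opposite strand were at 1.67 TPM or lower. Of 17 annotated genes that overlap Ank2, 3 are on the opposite strand, and levels of same-strand overlaps are not given here.

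The libraries held 32443497 and 30125183 expected counts, and markers of several cell types differed between them. Pan-neuronal markers were at a median of 188 and 157 TPM in replicates 1 and 2, with all 10 detected. Oligodendrocyte markers, of cells that make the myelin around nodes, summed to 1678 and 1283 TPM, and all 10 were lower in replicate 2 (median log2 ratio -0.35). Choroid plexus markers summed to 27.1 and 1303 TPM, and each of the 7 with enough counts was over 2-fold higher in replicate 2. Ttr alone held 20.8 and 1237 TPM of these sums. The summed meningeal markers were at 55.8 and 108 TPM. Of 5 markers of Schwann cells, the myelinating cells outside the brain, 3 were detected, with a summed level over all 5 of 27.5 and 27.1 TPM. Pou3f1, also expressed in other cells, held most of it at 18.0 and 16.4 TPM, Prx was at 0.160 and 0.180 TPM, and 1 of the 3 with enough counts was over 2-fold higher in replicate 2 (log2 ratio 1.30). Median log2 ratios were 0.01 for astrocyte, -0.06 for oligodendrocyte precursor, -0.05 for microglia and 0.06 for endothelial markers. No markers specific to hippocampal layers were among these lists.

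The libraries were then compared member by member, as the log2 ratio of scaled counts in replicate 2 over replicate 1, over 12651 genes whose mean count was at least 100. No member was over 2-fold apart (0 of 10), where 0.466% of all compared genes were. All 10 were within 1.2-fold, as were 90.7% of all compared genes. Of the members, 7 were lower in replicate 2, beside 54.3% of all compared genes. The median of the members was -0.02, beside -0.01 over all compared genes.

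Sptbn4 (6686 and 6481 counts) had a log2 ratio of 0.03, Sptan1 (44024 and 42240 counts) of 0.02 and Sptbn1 (43267 and 40831 counts) of -0.01. The ankyrins lay at -0.03 for Ank2 (35632 and 33042 counts) and -0.04 for Ank3 (22885 and 21071 counts). Nrcam (14584 and 13667 counts) was at -0.02 and Cntn1 (15173 and 14411 counts) at 0.00. The lowest ratios belonged to Cntn2 at -0.13 (3670 and 3178 counts), Cntnap1 at -0.12 (8502 and 7407 counts) and Nfasc at -0.09 (10433 and 9262 counts). All 3 lay below the other members and above the oligodendrocyte markers, which ran from -0.51 to -0.31. The pan-neuronal markers had a median log2 ratio of -0.16, and 10 of 10 were lower in replicate 2. The part of the cell makeup in these ratios was not tested, and in bulk tissue fewer cells of a type and less RNA per cell cannot be told apart. With the added spike-in RNAs as the scale, all ratios moved up by 0.26, and the members then lay between 0.13 and 0.30, above 0 in every case. Taken from TPM, Ank3 was higher in replicate 2 (0.06) and Sptan1 lower (-0.07), the opposite of their ratios in scaled counts.

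Other genes of these domains were taken from 5 lists. The channels of the initial segment and node (10 genes, all detected) included Scn2b, a sodium channel beta subunit, at 110 and 94.8 TPM. Of these channels, 9 of 10 were lower in replicate 2 (median log2 ratio -0.11), where 54.3% of all compared genes were. These directions depend on the scale: with spike-in scaling the medians of the 5 lists, in the order given here, were 0.15, 0.21, 0.13, 0.22 and 0.29. Cytoplasmic partners (12 genes, all detected, 10 lower, median -0.05) were led by Fgf13, which binds sodium channels, at 98.9 and 91.7 TPM, by the microtubule end binder Mapre3 at 95.7 and 92.9 TPM, and by the casein kinase subunit Csnk2b at 70.3 and 68.2 TPM.

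Among partners at the paranode and juxtaparanode (13 genes, all detected, 12 lower, median -0.14), Kcnab2, a potassium channel beta subunit, was highest at 291 and 277 TPM. The membrane skeleton gene Epb41l1 followed at 127 and 128 TPM and the secreted ligand Lgi1 at 75.5 and 75.2 TPM. Matrix genes (6 of 7 detected, 4 of 6 compared genes lower, median -0.04) were led by Bcan at 118 and 119 TPM, Ncan at 66.8 and 65.5 TPM and Tnr at 60.2 and 59.0 TPM. Of 16 other genes of the members' families, 14 were detected, 7 higher and 7 lower in replicate 2 (median 0.02). The L1-family genes Chl1 and L1cam were at 72.3 and 68.4 TPM and at 53.5 and 50.6 TPM. No gene of these 5 lists was over 2-fold apart.

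**Figure D2:**
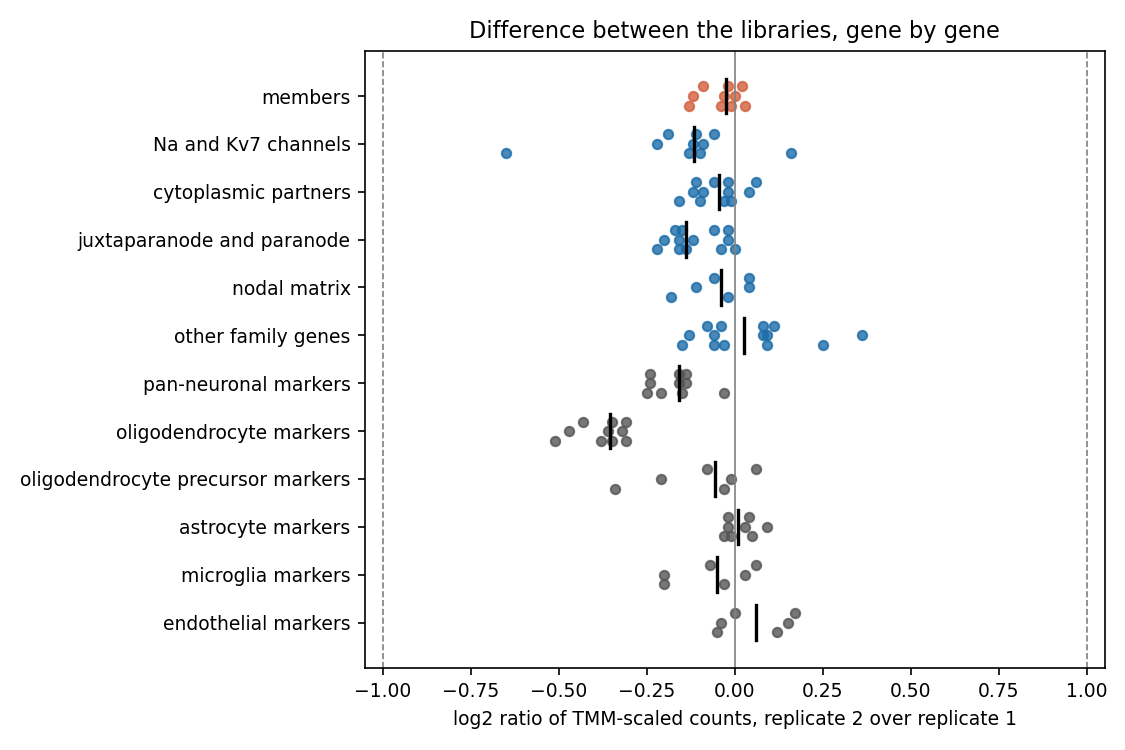
Log2 ratio of scaled counts, replicate 2 over replicate 1, with 1 point per gene; black ticks are list medians and dashed lines mark a 2-fold difference. The 10 members lie between -0.13 and 0.03 and all oligodendrocyte markers at or below -0.31; choroid plexus, meningeal and Schwann cell lists, part of which lies outside the axis, are not drawn.

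Transcript shares below are percents of a gene's TPM. The transcript with the highest mean level was the same in both quantifications for 7 of the 10 members, beside 75.7% of genes at 10 TPM or more with several transcripts. The exceptions were Sptbn4, Cntn1 and Nrcam. For Sptbn4 and Cntn1 the competing transcripts share a coding sequence, so that after pooling by coding sequence 9 of 10 members had the same leader.

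Sptbn4 was mostly measured as its shorter coding sequence. Transcripts that begin inside the gene and code for 1241 amino acids (Sptbn4-202, Sptbn4-203 and Sptbn4-204) took 73.0% and 71.0% of its TPM in replicates 1 and 2 (72.0 ± 1.36, SD, n = 2), and 69.6% and 62.8% in the second quantification. Sptbn4-201, the full-length form of 2561 amino acids, took 22.8% and 23.1%, and 27.9% and 25.6% in the second. Beta-IV spectrin is known in a long and a short form, both found at initial segments and nodes.

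Which internal start the short form used depended on the quantification. The first gave 69.6% and 58.2% to Sptbn4-203 and 3.36% and 11.4% to Sptbn4-202. The second gave 2.95% and 0.503% to Sptbn4-203 and 66.1% and 51.3% to Sptbn4-202. The starts lie at chr7:27396553 and chr7:27394506 on the minus strand. The 60 bases upstream of each, from RefSeq windows on GRCm38.p6, are shown because they are unlike in composition, with the dinucleotide CG in capitals.
Sptbn4-203 start, chr7:27396554-27396613: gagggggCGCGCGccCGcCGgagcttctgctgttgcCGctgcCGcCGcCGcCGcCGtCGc
Sptbn4-202 start, chr7:27394507-27394566: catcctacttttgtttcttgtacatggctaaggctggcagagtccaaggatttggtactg

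The 60 bases before the Sptbn4-203 start held 12 CG dinucleotides and those before the Sptbn4-202 start held 0. Over the 250 bases upstream, the counts were 28 and 1 and the GC content 71.6% and 48.4%. The upstream start of Sptbn4-201 had 33 CG dinucleotides and a GC content of 72.0% over the same length. Of 32851 such RefSeq windows, 92.1% held a CG dinucleotide, 7.61% held 28 or more and 18.8% at most 1. The dinucleotide reads the same on both strands. Windows were matched for 8 of the 10 members (18 windows), with a median GC content of 54.4% beside 52.4% over all windows.

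Cntn1 was measured almost wholly as a single coding sequence of 1020 amino acids, shared by Cntn1-201, Cntn1-202 and Cntn1-204. It took 99.6% and 99.5% of the gene's TPM, and 99.0% and 98.8% in the second quantification. The transcripts differ in their untranslated ends and starts, and here the quantifications parted. The first gave 66.1% and 65.9% to Cntn1-204, 32.3% and 31.3% to Cntn1-202, and 1.14% and 2.28% to Cntn1-201. The second gave 23.7% and 0.647% to Cntn1-204, 44.2% and 45.2% to Cntn1-202, and 31.1% and 52.9% to Cntn1-201, so that the libraries also differed from each other there.

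Sptbn1-201, of 2363 amino acids, took 90.1% and 89.9% of the Sptbn1 TPM in the first quantification, and 76.0% and 74.1% in the second. The difference lay mainly in Sptbn1-204, an incomplete model, which took 0.899% and 0.904% in the first and 15.1% and 17.0% in the second. Cntnap1 had the simplest output of the members: Cntnap1-201, of 1385 amino acids, took 99.9% and 100% by the first quantification, against 96.7% and 95.7% by the second.

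**Figure D3:**
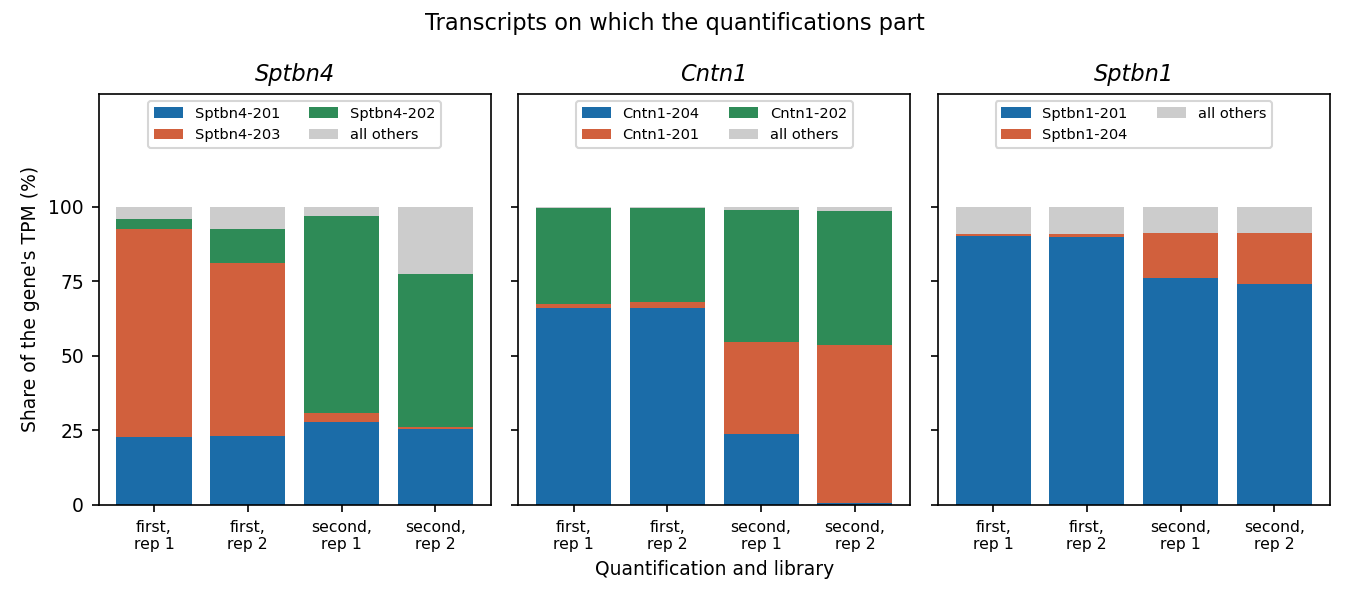
Share of the gene's TPM in each named transcript of Sptbn4, Cntn1 and Sptbn1 (stacked bars, each summing to 100%), for both quantifications and both libraries. The full-length Sptbn4-201 is between 22.8% and 27.9% in every bar while Sptbn4-203 and Sptbn4-202 change places, and Sptbn1-204 goes from below 1% in the first to 15.1% and 17.0% in the second.

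Sptan1-203, of 2477 amino acids, took 58.8% and 60.7% of the Sptan1 TPM, and 52.9% and 53.5% in the second quantification. Sptan1-204, of 2457 amino acids, took 9.98% and 10.9%, and 16.7% and 23.0% in the second. The 60-base exon printed above was included at 84.8% and 84.0% in replicates 1 and 2. Inclusion here is the TPM of transcripts that hold an exon, as a percent of the TPM of those that hold it or splice across it. The second quantification gave 74.5% and 68.8%, lower in both libraries.

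Cntn2-201, the complete form of 1040 amino acids, took 57.5% and 51.7% of the Cntn2 TPM, and 42.9% and 33.2% in the second quantification. Short or intron-retaining models took much of the rest. The incomplete Cntn2-206 took 18.0% and 16.0%, and 27.1% and 31.2% in the second. The intron-retaining Cntn2-202 took 14.3% and 19.0%, and 10.6% and 13.3% in the second. Another intron-retaining model, Cntn2-205, took 2.90% and 8.15%, and 12.7% and 17.4% in the second quantification. Transcripts that are not annotated as protein-coding made up 27.3% of Cntn2, and 32.9% in the second quantification (means of the libraries).

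The ankyrin genes are known in neurons for giant isoforms that arise by inclusion of a single very large coding exon. In Ank2 this exon is 6198 bases, and in Ank3 7674 bases, and serine and threonine codons made up 21.6% of the codons of each (2065 and 2557 codons). The Ank2 exon was included at 49.6% and 50.8% (50.2 ± 0.893, SD, n = 2), and at 41.1% and 44.1% in the second quantification. The Ank3 exon was included at 38.9% in both libraries, and at 39.0% and 38.7% in the second. With the shorter form of Ank3-233, which is 2550 bases long, either giant form was included at 46.3% and 45.8% (46.0 ± 0.338), and at 49.0% and 47.7% in the second quantification.

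Measured against all transcripts of the gene, the giant forms took less: 21.4% and 21.1% of the Ank2 TPM, and 27.1% and 24.4% of the Ank3 TPM for either form. Counts rise with RNA length, and the giant forms took 49.6% and 50.4% of the Ank2 counts and 43.3% and 42.0% of the Ank3 counts. The Ank2 value rests on Ank2-207 (17.1% and 16.4%) and Ank2-208 (4.25% and 4.69%, and 6.78% and 7.93% in the second). They were set against 3 transcripts that splice across the exon, mainly Ank2-201 (21.7% and 20.3%) in the first quantification. Another of the 3, the incomplete model Ank2-206, took 0% in both libraries of the first and 10.2% and 8.13% in the second. The lower inclusion in the second quantification thus rests on that model, which held 45.8 and 34.8 TPM there. Ank2-201 codes for 1050 amino acids, and it begins inside the gene at chr3:126998462, 10 bases from a RefSeq start. Ank2-218, an incomplete model, took 9.61% and 9.78% (13.3% and 14.3% in the second), and Ank2-216, an intron-retaining model at the end of the gene, 16.1% and 15.3%, falling to 7.60% and 6.16% in the second quantification.

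The Ank3 value rests on Ank3-244, an incomplete model of 9 exons that took 20.1% and 18.4% of the gene's TPM. The highest complete forms without the giant exon were Ank3-240, of 1807 amino acids, at 14.2% and 13.5%, and Ank3-231, of 1961 amino acids, at 12.5% and 11.1%. The short incomplete model Ank3-243, of 3 exons, took 12.1% and 12.7%. Incomplete models held 50.1% of the Ank3 TPM (mean of the libraries), the highest share of the members, so the combination of exons along whole Ank3 RNAs was not measured.

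Single exons were then compared. Of 69 internal coding exons of the members with transcripts both including and splicing across them, 29 had an inclusion between 10% and 90% in both quantifications. They came from 5 genes: Ank2, Ank3, Sptan1, Nfasc and Nrcam. This range was chosen after the values had been seen. Of the 29, 27 (93.1%) had a length that is a multiple of 3, which keeps the reading frame whether the exon is in or out. Among the other 325 internal coding exons of the members 159 did (48.9%). The 29 are not separate splicing choices. The Ank3 exons of 87, 84 and 57 bases share the same inclusion, as do the Nfasc exons of 237, 117 and 153 bases. The Nfasc exons of 116 and 205 bases also share the same inclusion. The Ank3 exons of 2550 and 7674 bases are overlapping forms of the same exon. Further exons rest on shared transcripts. The Ank3 54-base exon at chr10:70006800-70006853 and the Ank3 12-base exon were held by Ank3-240, as were the Ank3 exons of 87, 84 and 57 bases. The Nfasc 18-base exon was held by Nfasc-202 and Nfasc-207, as were the Nfasc exons of 237, 117 and 153 bases. The Ank3 27-base exon shares Ank3-244 with the 7674-base exon, and the Ank3 24-base exon shares Ank3-233 with the 2550-base exon. The largest gap between the libraries was 4.10 points by the first quantification and 6.90 points by the second. Between the means of the quantifications the median gap was 2.80 points and the largest 14.4 points.

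Of the variable exons, 8 were microexons of 30 bases or shorter: 1 in Ank2, 3 in Ank3, 1 in Nfasc and 3 in Nrcam. The 12-base exon of Ank2 was included at 15.3% and 16.2%, and at 21.9% and 23.0% in the second quantification. That of Ank3 was included at 35.9% and 37.1% (second, 34.5% in both). Ank3 also had a 24-base exon at 16.6% and 15.0% (second, 21.2% and 18.0%) and a 27-base exon, 2 exons before the giant one in Ank3-244, at 34.6% and 34.4% (second, 32.4% and 33.7%). The Ank2 12-base exon was held only by Ank2-218 and the Ank3 24-base exon only by Ank3-233. The Ank3 27-base exon was held by Ank3-244, Ank3-238 and Ank3-213. All of these are incomplete models, so the inclusion of these exons does not give shares of complete coding RNA. The 12-base exon of Nrcam was included at 26.1% and 26.2% (second, 26.3% and 25.8%) and its 30-base exon at 69.6% and 71.1% (second, 70.6% and 71.7%). Its 18-base exon was included at 55.5% and 53.5%, and at 66.0% and 64.5% in the second. That exon was held by Nrcam-215, Nrcam-204 and Nrcam-213, all annotated for decay, by the intron-retaining Nrcam-208 and by the incomplete Nrcam-206. The 12-base exon of Nrcam was held by Nrcam-215 and the incomplete Nrcam-205. Neither exon was in Nrcam-201 or Nrcam-202, the complete protein-coding models, so these values do not give shares of complete coding RNA. The 18-base exon of Nfasc was included at 68.7% and 64.6% (second, 69.5% and 62.6%). The Ank2 12-base, Ank3 24-base, Nrcam 18-base and Nrcam 30-base exons were thus higher in the second quantification in both libraries. The rise was smallest at the Nrcam 30-base exon. The 8 microexons sit in 4 of the 5 genes with variable exons, and Sptan1 had none.

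Nfasc makes forms that hold different sets of coding exons. Exons of 237, 117 and 153 bases, held by Nfasc-202, were included together at 72.7% and 69.7%, and at 72.9% and 66.7% in the second quantification. In the 237-base exon, at chr1:132588074-132588310, 59.0% of codons were for serine, threonine or proline, beside 24.0% over the whole coding sequence of Nfasc-202. A pair of exons of 116 and 205 bases upstream of them, held by Nfasc-201, was included at 27.3% and 30.3%, and at 41.6% and 44.7% in the second. This pair holds the only variable exons here whose lengths are not multiples of 3, and their summed length is a multiple of 3. Neurofascin is known in a neuronal form with a mucin-like stretch and in a glial form that lacks it and has an added fibronectin repeat.

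Nfasc-202, of 1240 amino acids, was at 37.0 and 33.4 TPM and took 53.0% and 53.2% of the gene, and 45.8% and 41.0% in the second quantification. Nfasc-201, of 1157 amino acids, was at 9.66 and 9.84 TPM and took 13.8% and 15.7%, and 17.7% and 20.1% in the second. Nfasc-207, which holds both the 237-, 117- and 153-base exons and the pair of 116 and 205 bases, took 0% in both libraries of the first quantification and 11.4% and 8.51% in the second. In replicate 2 of the first quantification, where oligodendrocyte markers summed to 1283 TPM against 1678 TPM, Nfasc-202 was lower than in replicate 1 and Nfasc-201 was not lower. The cell source of these transcripts was not tested. The intron-retaining Nfasc-206 took 11.5% and 11.3%. The ankyrin-binding codons were present in 5 of 10 annotated Nfasc transcripts, which took 72.9% and 76.3% of its TPM, and 78.4% and 74.1% in the second quantification. Transcripts not annotated as protein-coding held 20.4% of the Nfasc TPM, and 19.4% in the second (means of the libraries).

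Nrcam was spread over many models, with 14 of its 17 annotated transcripts at 1 TPM or more in both libraries, beside 7 of 10 for Nfasc. Its leading complete form, Nrcam-201 of 1256 amino acids, took 17.6% and 17.9% of its TPM, and 15.2% and 15.7% in the second quantification. There the leader was Nrcam-204, a short incomplete model annotated for nonsense-mediated decay, at 23.2% and 26.3% where the first gave 8.47% and 6.34%. Nrcam-215, also annotated for decay, took 12.2% and 12.1%, the incomplete Nrcam-214 10.5% and 12.1% (6.65% and 8.28% in the second), and the intron-retaining Nrcam-208 9.83% and 12.1% (15.3% and 10.3% in the second). Transcripts not annotated as protein-coding held 48.9% of the Nrcam TPM, and 66.2% in the second quantification (means of the libraries). The ankyrin-binding codons were present in 4 of 17 transcripts, which took 42.6% and 44.2%, and 32.6% and 35.0% in the second. The complete protein-coding forms, Nrcam-201 and Nrcam-202, both held them. All other TPM outside these transcripts lay in models that are incomplete or not annotated as protein-coding. The share thus does not give the part of NrCAM protein without the site. The 36-base exon of Nrcam was included at 80.0% and 82.3% and its 153-base exon at 44.7% and 45.5%. That 153-base exon was held by Nrcam-201 and by Nrcam-203, a transcript not annotated as protein-coding.

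**Figure D4:**
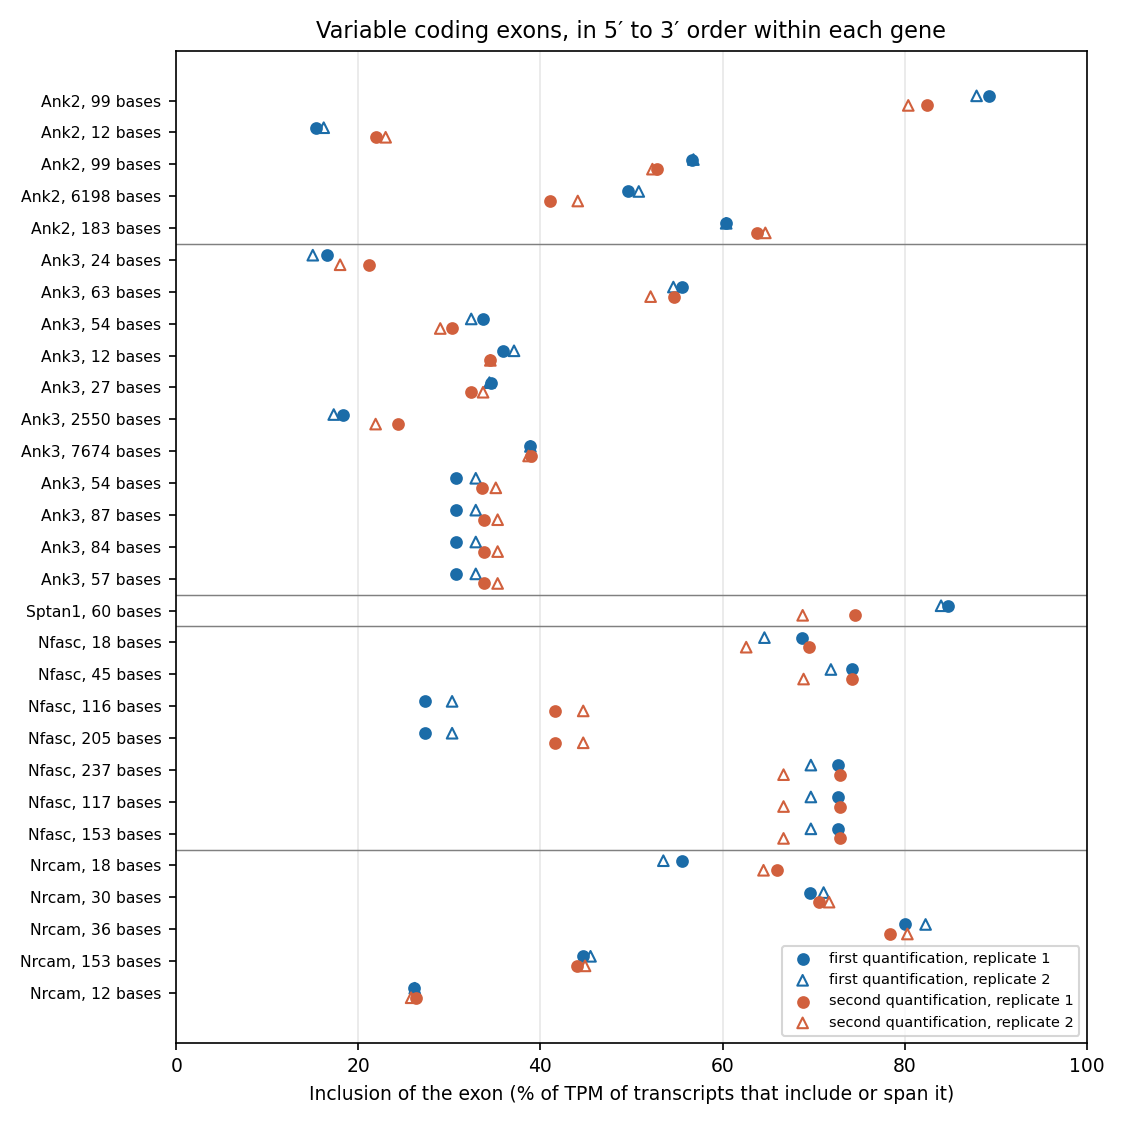
Inclusion (percent) of the 29 variable coding exons, in order along each gene, with circles for replicate 1, triangles for replicate 2, blue for the first quantification and orange for the second. Libraries lie within 6.90 points of each other, and the widest gap between colours is at the Nfasc pair of 116 and 205 bases.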

How the data were processed

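Total RNA-seq libraries (2, a single group) were described through 3 tables each. In the gene and first transcript tables the authors deposited expected counts (which can be fractional) and TPM, per the file headers. Estimated counts and TPM of another run by the authors fill the second transcript table, per the file headers. The build is mm10, per the labels; for the quantification software and for strand use, names and versions were not given in the sources used here. Expected counts were rounded, scaled by TMM in edgeR 4.0.16 (R 4.3.3) and expressed as log2 CPM with a prior count of 0.5. Genes whose mean count was at least 100 were compared. The script was tested on simulated data.

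With 1 library on each side no p-value was computed, and over 2-fold was the rule of size. All members were named, with transcripts at 10% or more of the gene TPM in either quantification and the 3 highest genes of each partner list, some of which are not reported here. The members and lists were chosen with earlier results of these data known. Exon models and spliced sequences came from GENCODE M21, and upstream windows from RefSeq. Numbered entries that name no gene (4.00 and 4.88 counts) were left out. Alternatives were DESeq2 1.42.0 size factors, total-count and spike-in scaling, deposited TPM, other minimums and prior counts, the second quantification and leaving out each library. Total expected counts of 30125183 or more and whole counts of 3178 or more for every member set the counting precision.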

Additional observations from a re-analysis of the deposited data

How the results depend on the processing

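All 10 members stayed at 1 TPM or more with minimums of 0.5 and 10 TPM, in the second quantification and in either library alone. None was over 2-fold apart under the other scalings, counts and minimums tried, or over 1.5-fold apart. The median log2 ratio of the members, -0.02, moved to 0.24 with spike-in scaling, which shifted all genes by 0.26; the other alternatives gave -0.04 to 0.00. The summed TPM of 1565 moved to 2575 in the second quantification, and the cause was not tested. It was 1551 without replicate 1 and 1579 without replicate 2. The second quantification moved the TPM of 10 members and the leading transcript's share in 9 by more than 1 SD. The same leading transcript was found in both quantifications for 7 members, in either library alone too, for 8 with protein-coding transcripts only and for 9 with coding sequences pooled, an alternative chosen after seeing the data. An SD over 2 libraries is itself poorly known. No paired analysis was possible because there is only 1 group.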
